A study of Sus scrofa with 18 samples.

Results

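The forms described here are 5-prime length variants of microRNAs (miRNAs): reads that match a mature miRNA and its hairpin without a mismatch but begin 1 or more bases before or after the annotated first base. They were chosen by their position alone, as forms that the deposited table calls shorter or longer and whose start differs from that of the exact form of the same miRNA in the same hairpin. The rule found 794 forms, counted once per mature miRNA, among 1840 exact and length forms, and among 17623 forms of all kinds in the table. They belong to 149 of the 225 miRNAs that had an exact form to measure from, and to 133 hairpins. The other 76 miRNAs with an exact form had no such variant in the table, and 15 further miRNAs had no exact form, so that 33 length rows under them could not be placed. An offset is written +1 where a form starts 1 base downstream of the annotated start and -1 where it starts 1 base upstream, and the table holds offsets up to 3 bases either way.

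The small RNA libraries came from backfat, the fat under the skin of the back, of 18 pigs of the breed Italian Large White. The 9 pigs labelled high for backfat deposition were 5 castrated males and 4 females aged 235 to 250 days, and the 9 labelled low were 4 castrated males and 5 females aged 233 to 249 days. All pigs weighed 150 to 160 kg at sampling and shared housing and diet, and no treatment or genotype distinguished the classes. Each library carried its own animal number, so the p-values below measure the spread between animals. Counts over distinct sequences ran from 11674414 to 28306762 among high libraries and from 9601510 to 34588252 among low libraries. The labels' library codes fall into 4 runs of consecutive codes, and the run AC485 to AC488 holds 1 high and 3 low libraries. Backfat is a mixed tissue, so fewer cells of a type and less RNA per cell cannot be told apart in these bulk samples.

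A miRNA is cut from its hairpin by Drosha on one side and by Dicer on the other, so the 5-prime end of a miRNA from the 5-prime arm is a Drosha cut and that of a miRNA from the 3-prime arm is a Dicer cut. The Argonaute protein holds that end, and the seed, the bases just after the first one, pairs with the target. A cut that moves by a single base changes the seed and with it the set of sites the miRNA can pair with, while a change at the 3-prime end leaves the seed as it was.

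Sequences are given 5′ to 3′ as the table writes them, with T for U, and with the seed, bases 2 to 8, in capitals. The first set shows the exact form and the most abundant shifted form of the 2 miRNAs that gave most of the shifted reads, the paralogs miR-10b and miR-10a-5p from the Hox gene clusters. Loss of the first T moved the seed from ACCCTGT to CCCTGTA in both.
miR-10b exact: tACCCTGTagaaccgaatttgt
miR-10b +1: aCCCTGTAgaaccgaatttgtg
miR-10a-5p exact: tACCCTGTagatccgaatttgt
miR-10a-5p +1: aCCCTGTAgatccgaatttgtg
The second set shows miRNAs whose most abundant sequence was a shifted form, so that the seed printed for the annotated sequence was not the seed of most of their reads.
miR-145-3p exact: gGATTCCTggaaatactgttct
miR-145-3p +2: aTTCCTGGaaatactgttctt
miR-29a exact: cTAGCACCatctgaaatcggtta
miR-29a +1: tAGCACCAtctgaaatcggtt
miR-142-5p exact: cATAAAGTagaaagcactact
miR-142-5p -2: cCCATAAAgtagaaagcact
miR-142-3p exact: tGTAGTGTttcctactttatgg
miR-142-3p +3: aGTGTTTCctactttatggatg
miR-133a-3p exact: tTGGTCCCcttcaaccagctg
miR-133a-3p -1: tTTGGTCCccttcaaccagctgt
miR-505 exact: tCAACACTtgctggtttcctct
miR-505 -2: cGTCAACActtgctggtttcct
miR-425-3p exact: aTCGGGAAtgtcgtgtccgccc
miR-425-3p -1: cATCGGGAatgtcgtgtccgcc
The third set shows miRNAs that kept the annotated start as their main one but had a large second start, and miR-126-3p, which had one on either side.
miR-101 exact: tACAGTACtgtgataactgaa
miR-101 -1: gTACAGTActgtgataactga
miR-214 exact: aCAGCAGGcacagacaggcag
miR-214 -1: tACAGCAGgcacagacaggcagt
miR-126-3p exact: tCGTACCGtgagtaataatgcg
miR-126-3p +1: cGTACCGTgagtaataatgcg
miR-126-3p -1: cTCGTACCgtgagtaataatgcg
The fourth set shows the overlapping starts of miR-199-3p, which the table annotates under both of its genes.
miR-199b-3p exact: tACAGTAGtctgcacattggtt
miR-199a-3p exact: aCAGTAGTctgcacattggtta
miR-199b-3p +1: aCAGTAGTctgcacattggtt
miR-199a-3p +1 and miR-199b-3p +2: cAGTAGTCtgcacattggtt

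Shifted forms made up 5.59% ± 0.398 (SD, n = 18) of the exact and length reads of a library, where the denominator ran from 7784884 to 28451927 reads. The share was 4.91%, 5.53% and 6.70% (lowest, median and highest) among the 9 high libraries, and 5.11%, 5.60% and 6.02% among the 9 low libraries, so the classes overlapped throughout. Exact forms held 62.7% of these reads and length forms with the annotated start 31.7%. Nearly all of the shifted reads had lost a single base: offset +1 held 5.02% ± 0.397 of a library (SD, n = 18), which is 89.7% of the shifted reads, in 311 forms of 111 miRNAs. Offset -1, with 239 forms of 84 miRNAs, held 0.337% of a library, and offset -2, with 42 forms of 16 miRNAs, held 0.104%. Offset +2 held 0.0985% ± 0.0186 among high libraries and 0.126% ± 0.0179 among low libraries (SD, n = 9 each), a difference that was larger than 1 SD but between overlapping ranges, 0.0704% to 0.126% and 0.0984% to 0.155%, and that was not tested. Its most abundant contributors, described below, were miR-145-3p and miR-199-3p. Offset +3 held 0.0168% and offset -3 held 0.000455%. By run of library codes the mean share of all shifted reads was 5.26% for U966 to U969, 5.63% for U074 to U077, 5.96% for U134 to U139 and 5.35% for AC485 to AC488.

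A few miRNAs supplied most of these reads. miR-10b alone gave 62.9% of all shifted reads, the 5 largest contributors 86.5% and the 15 largest 97.0%. Without miR-10b and miR-143-3p, which each held more than 10% of all counts, the shifted share of a library was 4.05%. The forms differed as widely in depth: the median form had 268 reads summed over all libraries, 272 forms were found in all 18 libraries and 99 in a single one. The table holds no count of 1 in these libraries and its smallest count above 0 is 2, so a form listed at 0 may have had a read, and no upper limit is set for a share of 0. Among the 133 miRNAs with a mean of at least 1000 exact and length reads per library, the median shifted share was 0.281%, with 54 miRNAs over 1%, 20 over 10%, 6 over 50% and 24 with no shifted form. A shifted start was therefore a minor fraction for most miRNAs and the main form for a small group.

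miR-145-3p, the passenger strand of the smooth muscle miRNA miR-145, was the most shifted of these. Its share was 98.7%, 99.1% and 99.4% (lowest, median and highest) among high libraries and 98.9%, 99.2% and 99.5% among low libraries, and offset +2 alone held 94.0% of its reads, beside 5.18% at +1 and 0.862% at the annotated start. miR-29a, known for repressing collagen and other matrix genes, had a share of 86.8%, 89.5% and 90.9% among high and 88.0%, 89.5% and 91.8% among low libraries, all of it at +1. In both miRNAs no library came near an even split. miR-142-5p, from the hairpin expressed in blood cells, had 62.4%, 65.6% and 78.3% shifted among high and 56.3%, 62.6% and 73.8% among low libraries, with 64.8% of its reads at -2. Its partner arm miR-142-3p, with a mean of 977 reads, had 50.8%, 59.0% and 70.5% shifted among high and 53.2%, 69.3% and 78.6% among low libraries, with 56.8% at +3 and 6.64% at +1. Both arms of this hairpin thus had a shifted majority in all 18 libraries, and miR-142-5p had the larger share in 10 of the 18.

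miR-133a-3p, a miRNA of skeletal and heart muscle, was close to an even split between 2 starts 1 base apart. Its shifted share was 40.3%, 53.7% and 57.0% among high and 42.6%, 52.6% and 55.4% among low libraries, with 50.8% of reads at -1 and 48.7% at the annotated start, and the shifted forms were the majority in 12 of 18 libraries. miR-24-1-5p was similar, at 45.8%, 53.7% and 57.9% among high and 42.1%, 47.5% and 53.7% among low libraries, with 44.2% at -1 and 6.06% at +1. miR-361-3p had 42.9%, 45.8% and 54.0% among high and 44.4%, 48.3% and 51.8% among low libraries, all at -1. For these 3 miRNAs, with means of 1044 to 1472 reads, some of the spread is counting error, which alone gives an SD of 1.76 to 1.83 percentage points.

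Among less abundant miRNAs with a mean of at least 100 reads, 3 more had a shifted sequence as their most abundant one together with a shifted majority. miR-505 used 3 starts, with 46.5% of its reads at -2, 32.6% at -1 and 20.9% at the annotated start (mean 646 reads). miR-425-3p had 64.1% ± 4.48 at -1, and miR-365-5p had 58.8% ± 7.68 at +1 (SD, n = 18), the latter over a mean of only 223 reads. In all, 9 miRNAs with a mean of at least 100 reads had their main start off the annotation: miR-29a, miR-145-3p, miR-142-5p, miR-142-3p, miR-199b-3p, miR-133a-3p, miR-505, miR-425-3p and miR-365-5p. miR-1306-3p (78.1% shifted, mostly at -3), miR-1285 and miR-2320-3p did so too, with means of 25.4 to 96.9 reads. For miR-199b-3p the main start is the annotated start of miR-199a-3p, and many of the same reads are listed under both, as described below.

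miR-101, known for targeting the methyltransferase EZH2, had 41.6%, 43.2% and 49.7% of its reads shifted among high and 35.6%, 42.2% and 44.3% among low libraries, nearly all at -1. miR-214, which is made from the same primary transcript as a miR-199a gene, had 32.2%, 34.5% and 36.6% among high and 32.0%, 34.6% and 36.7% among low libraries, with 34.0% at -1. Its SD over the 18 animals was 1.38 percentage points. miR-126-3p, the miRNA of endothelium, had 16.5%, 19.3% and 25.9% among high and 14.8%, 19.1% and 21.3% among low libraries, divided between +1 (14.4%) and -1 (5.46%). Its partner arm miR-126-5p, at a mean of 468531 reads, had only 0.146% ± 0.0336 shifted (SD, n = 18). The remaining miRNAs among the 15 highest shares were miR-664-5p (21.6%), miR-7134-5p (18.2%), miR-452 (16.9%), miR-192 (16.7%) and miR-708-3p (16.2%), with means of 1049 to 5122 reads.

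miR-10b is one of the most abundant miRNAs of these libraries, and a small part of its reads was enough to lead the list. Its shifted share was 8.85%, 10.1% and 12.2% (lowest, median and highest) among high and 7.36%, 9.65% and 11.0% among low libraries, and +1 held 9.75% of its reads while +2 and +3 together held under 0.02%. miR-10a-5p, which differs from miR-10b by 1 base in the middle of the sequence, had 13.6%, 16.1% and 19.0% among high and 11.5%, 15.8% and 17.1% among low libraries. The share of miR-10a-5p was above that of miR-10b in 18 of 18 libraries, by a median of 5.94 percentage points. Other paralogs also kept their own shares: miR-30e-5p at 6.51% ± 0.569 exceeded miR-30a-5p at 0.888% ± 0.0632 in 18 of 18 libraries, and miR-30a-3p at 10.5% ± 1.47 exceeded miR-30e-3p in 18 of 18 (SD, n = 18 each). The share of miR-29a exceeded that of miR-29b, 19.6% ± 5.47 (SD, n = 18), in 18 of 18, but their annotations start 1 base apart. The +1 start of miR-29a and the annotated start of miR-29b are the same T, where most reads of both began. These 2 shares are therefore not measured from the same base. Of the other large contributors, miR-378, which lies in a gene for a coactivator of mitochondrial metabolism, had 6.87%, miR-191 had 2.56%, and miR-143-3p, a miRNA of adipocytes and smooth muscle, had 0.510%. miR-423-3p (13.2%), miR-363 (10.5%) and miR-199a-3p (10.8%) also passed 10%.

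The spread of a share between animals was larger than counting error for each of the 63 miRNAs with at least 1000 reads and at least 100 shifted reads on average. The ratio of the observed SD to the counting SD had a median of 3.18 and reached 90.6, the highest being that of miR-10b, where counting error is only 0.0124 percentage points. PCR copies cannot be recognised in these reads, so this comparison covers counting error alone.

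A shifted form can carry the seed of another miRNA. Of the 794 forms, 43 forms of 17 miRNAs had bases 2 to 8 equal to those of the exact form of a different miRNA in the table, and they held 11.0% of the shifted reads. Most of these reads were those of miR-199-3p, whose 2 annotations start 1 base apart. Summed over all libraries, +1 of miR-199b-3p had 1469552 reads and -1 of miR-199a-3p had 67267, against 435730 for +1 of miR-29a. There were 236 distinct seeds among the shifted forms against 171 among all exact forms. The largest case outside miR-199-3p was miR-29a, whose +1 forms carry the seed AGCACCA of miR-29b and miR-29c. They had 24207 reads per library on average, against 8153 for all exact and length reads of miR-29b and miR-29c together. In the other direction, the -1 forms of miR-29b carry the annotated miR-29a seed TAGCACC and made up 22.3% ± 4.22 of miR-29b among high and 16.9% ± 5.43 among low libraries (SD, n = 9 each), over a mean of only 576 reads.
miR-29a +1: tAGCACCAtctgaaatcggtta
miR-29b exact: tAGCACCAtttgaaatcagtgtt
miR-29c exact: tAGCACCAtttgaaatcggtta
miR-29b -1: cTAGCACCatttgaaatcagtg
The next pair joins 2 families. The +1 forms of miR-27b-3p, a miRNA known for restraining fat cell formation, carry the seed CACAGTG of miR-128, a miRNA best known from brain. They were only 0.0351% of the reads of miR-27b-3p, but miR-27b-3p is so much more abundant than miR-128 that they held 15.6% ± 7.33 (SD, n = 18, range 7.38% to 34.2%) of the sum of these forms and all miR-128 reads.
miR-27b-3p +1: tCACAGTGgctaagttctg
miR-128 exact: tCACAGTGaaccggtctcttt
The third case concerns let-7, the family that acts against growth genes, whose +1 forms carry the seed AGGTAGT of miR-196, a miRNA of the Hox clusters. Forms of let-7a, let-7f, let-7i, let-7g, let-7c, let-7d-5p and miR-98 gave 47 to 513 reads per library, with a median of 158, against 274 to 8765, with a median of 3069, for miR-196a and miR-196b. Their part of the sum was 8.24% ± 6.05, from 1.95% to 25.5%.
let-7a +1: gAGGTAGTaggttgtatagtt
miR-196a exact: tAGGTAGTttcatgttgttggg
Few reads stood behind the other matches, which were +3 of miR-21 and -1 of miR-361-5p to miR-374, -1 of miR-130a to the miR-148 family, +1 of miR-27a to miR-128 and -1 of miR-29c to miR-29a. Equal seeds are a description of the letters and no measurement of any target.

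The table annotates miR-199-3p from its 2 genes with starts 1 base apart, and lists an exact sequence only under its own miRNA while a shifted form may stand under both. Of the 794 forms, 36 are listed under more than 1 miRNA. Under miR-199b-3p the shifted share was 50.9%, 54.3% and 57.5% (lowest, median and highest) among high and 53.1%, 57.9% and 59.3% among low libraries, with 49.7% of reads at +1 (this leaves out the A-start sequence that is exact for miR-199a-3p), and under miR-199a-3p it was 9.84%, 10.6% and 11.4% among high and 9.73%, 10.7% and 12.6% among low libraries. Counting each sequence once over both annotations, 57.5% ± 2.62 of the miR-199-3p reads began at the A of miR-199a-3p (SD, n = 18). The start at T, that of miR-199b-3p, held 39.1% ± 2.49 among high and 35.9% ± 2.32 among low libraries (SD, n = 9 each). The start at C, 1 base after that A and 2 bases after that T, held 4.66% ± 0.469 among high and 5.26% ± 0.453 among low libraries. The ranges of the classes overlapped at each of these 3 starts, and these pooled shares were not tested.

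Counted per miRNA, shifted starts were more frequent on the 3-prime arm, whose 5-prime ends are Dicer cuts. Most shifted reads nevertheless came from the 5-prime arm, since miR-10b, a miRNA of that arm, alone gave 62.9% of them. Among miRNAs with a mean of at least 1000 reads, the median share was 1.11% for 58 miRNAs of the 3-prime arm and 0.0872% for 74 of the 5-prime arm, with 31 and 23 of them over 1%. The median was higher on the 3-prime arm in 18 of 18 libraries. Of all miRNAs with an exact form, 75.5% (77 of 102) on the 3-prime arm and 59.0% (72 of 122) on the 5-prime arm had any shifted form. The 5-prime arm miRNAs were the deeper ones, with a median of 15096 reads against 6762 for the 3-prime arm. These are counts and medians over miRNAs, which are not replicates, and carry no test. The arm came from the name for 110 miRNAs and from the position in the hairpin for 114, and 1 stayed without an arm.

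The shift also changed the first base, which Argonaute holds in a pocket of its own. Exact forms of the 149 miRNAs began with T in 44.3% of cases and 85.8% of reads, whereas shifted forms began with T in 21.0% of cases and 4.14% of reads and with A in 32.6% of cases and 84.5% of reads. miR-10b and miR-10a-5p weigh heavily in these read shares. Counted once per miRNA, the base lost at +1 was T in 47 of 111 and the new first base A in 43 of 111. At -1 the base gained was C in 34 of 84 miRNAs, A in 19, G in 17 and T in 14.

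The 2 ends of a read mostly moved in the same direction, but in most cases the 3-prime end moved by less than the start. Of the 794 forms, 241 kept the annotated 3-prime end and 553 did not. For each start with a mean of at least 100 reads, the mean 3-prime end was compared with that of reads of the same miRNA from the annotated start, within the window of 3 bases the table covers at that end. Later starts had a later mean 3-prime end in 48 of 53 cases, by a median of 0.217 bases, and earlier starts an earlier one in 34 of 36, by a median of 0.418 bases. The end hardly moved at +1 of miR-148a-3p (0.0149 bases) and of miR-92a (-0.00141 bases). The 3 miRNAs described next had differences larger than these medians. For miR-142-5p, reads from -2 ended on average 2.55 bases before the annotated end and reads from the annotated start 0.425 bases before it, so that both had nearly the same length, 20.4 and 20.6 bases. For miR-101 the mean end was 1.37 bases before the annotated one at -1 and 0.0115 bases after it at the annotated start. For miR-10b it was 0.811 bases after the annotated end at +1 and 0.0416 bases after it at the annotated start, with mean lengths of 21.8 and 22.0 bases. These 3 differences had the same sign in 18 of 18 libraries. For miR-199-3p the comparison within 1 annotation is void, because the table lists the A-start sequence that ends 1 base later only as the exact form of miR-199a-3p. With each sequence counted once over both annotations, reads from the A start ended 0.243 bases later on average than reads from the T start, and reads from the C start 0.178 bases later, each in 18 of 18 libraries. Without the miR-199-3p starts the counts were 47 of 50 for later and 33 of 35 for earlier starts. The table's window cuts the longest and shortest reads at each start, so these distances hold within it only.

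miRNAs reported to have 5-prime variants in other mammalian tissues were checked from a list of 10. Of these, 7 were in the table and 6 had an exact form, and all 6 had shifted reads: miR-101 and miR-133a-3p and miR-142-3p as above, miR-455-3p at 32.5% ± 3.53, miR-183 at 33.3% ± 18.0 over a mean of 97.8 reads, and miR-9 at 0.262% ± 0.907 (SD, n = 18). For miR-9 this was a mean of 0.5 shifted reads per library, all in low libraries and too few to compare the classes. Over all miRNAs with an exact form, 149 of 225 had a shifted form, so having one is common outside this list too. Some strongly shifted miRNAs are those of particular cells, so the summed levels of lists of marker miRNAs are given here. These sums do not measure the makeup of the samples. Adipose markers were all present, 6 of 6, and summed to 210148 to 300936 counts per 1000000 of the library (CPM) among high and 224688 to 289032 among low libraries. Most exact and length reads of this list were those of miR-143-3p, which is also a miRNA of smooth muscle. White blood cell markers, 3 of 4 measured, summed to 1112 to 3233 CPM among high and 1228 to 3055 among low libraries, and they include both arms of miR-142. Skeletal muscle markers, 5 of 5 in the table and miR-133a-3p among them, summed to 41.5 to 138.7 CPM with a median of 66.1 among high libraries, and to 72.4 to 211 CPM with a median of 116 among low libraries, in overlapping ranges. Endothelial markers, both arms of miR-126, summed to 15578 to 37817 CPM among high and 20614 to 41361 among low libraries, and red blood cell markers, 4 of 4, to 3636 to 6425 and 2610 to 9370 CPM. Neural markers, 4 of 4 in the table, summed to 79.2 to 186 CPM among high and 60.9 to 144 among low libraries. Of 5 epithelial markers only miR-205 was measured, at 1.41 to 48.7 CPM over all libraries, and the liver marker miR-122 reached at most 38.5 CPM. The part of these cells in any class difference was not tested.

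Whether backfat class went with the choice of start was tested by limma on the log2 ratio of shifted to unshifted reads of each miRNA, with sex in the model, for the 115 miRNAs with enough reads. No miRNA passed an adjusted p of 0.05 (percent called 0), and 14 of 115, or 12.2%, had an unadjusted p under 0.05. The median difference of high minus low over the 115 was 0.04 log2 units, with 69 miRNAs above 0 and 46 below. miR-497 came first: its shifted share was 0.757%, 1.05% and 1.42% (lowest, median and highest) among high and 1.07%, 1.42% and 1.75% among low libraries, a log2 ratio difference of -0.47 ± 0.13 (SE, limma adjusted p = 0.293). miR-21 followed, at 0.0558%, 0.0915% and 0.115% among high and 0.0566%, 0.0661% and 0.0919% among low libraries (0.38 ± 0.12 SE, limma adjusted p = 0.323). The classes overlapped for both. The next 3 by p, each with a limma adjusted p of 0.323, were miR-331-5p (0.44 ± 0.16), miR-30a-5p (0.14 ± 0.05) and miR-378 (0.15 ± 0.05, SE). miR-10b, miR-10a-5p, miR-199b-3p and miR-29a, which carry most of the shifted reads, were not among the 5 lowest p. The share of miR-199b-3p was nevertheless 54.1% ± 2.33 among high and 57.1% ± 2.24 among low libraries (SD, n = 9 each), in overlapping ranges. A p that misses the threshold does not show that the shares were equal.

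The level of each start was tested with edgeR's quasi-likelihood test on counts summed per miRNA and start, over 413 start groups of which 200 were shifted. Of the 413, 7 were called at an adjusted p of 0.05, or 1.69%, and 4 of the 200 shifted groups were, 2 lower and 2 higher in the high class. At an unadjusted p under 0.05 there were 26 of 200 shifted groups against 80 of 413, or 19.4%, over all groups, so the share among shifted starts was not above that over all starts. The 2 lower groups are the same reads, since the start at C of miR-199-3p is +1 under miR-199a-3p and +2 under miR-199b-3p. Their level, as CPM after TMM scaling of library sizes, was 282, 443 and 547 CPM (lowest, median and highest) among high and 497, 638 and 692 CPM among low libraries. All 9 high libraries lay below the low median, while the ranges overlapped between 497 and 547 CPM, and the log2 difference was -0.52 ± 0.12 (SE, edgeR quasi-likelihood adjusted p = 0.0310). The other starts of miR-199-3p were also lower in the high class but passed no threshold: the annotated start of miR-199a-3p by -0.42 ± 0.12 (adjusted p = 0.0879), the +1 start of miR-199b-3p, again without that sequence, by -0.39 ± 0.12 (adjusted p = 0.126) and the annotated start of miR-199b-3p by -0.22 ± 0.14 (SE, edgeR adjusted p = 0.433).

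miR-365-5p +1, the main start of that miRNA, was higher in the high class, at 5.44, 10.6 and 21.7 CPM against 2.56, 3.81 and 8.28 CPM among low libraries (lowest, median and highest). All 9 high libraries were above the low median although the ranges overlapped, and the log2 difference was 1.21 ± 0.29 (SE, edgeR quasi-likelihood adjusted p = 0.0410). Reads from its annotated start rose too, by 1.0 ± 0.21 (SE, edgeR adjusted p = 0.0310), so both starts of this miRNA were higher together.
miR-365-5p exact: gAGGGACTttcaggggcagctgt
miR-365-5p +1: aGGGACTTtcaggggcagctgtg
miR-1249 -1 was 5.85, 9.04 and 19.8 CPM among high and 3.31, 5.24 and 8.58 CPM among low libraries, a log2 difference of 0.97 ± 0.25 (SE, edgeR adjusted p = 0.0492). Its annotated start, with 193 ± 87.7 CPM among high and 125 ± 30.1 among low libraries (SD, n = 9 each), differed by 0.64 ± 0.22 (SE, edgeR adjusted p = 0.128). miR-24-1-5p -1 came next, at 24.0, 30.5 and 46.1 CPM against 16.3, 21.4 and 26.5 CPM (0.55 ± 0.15 SE, edgeR adjusted p = 0.0564).
miR-1249 exact: aCGCCCTTcccccccttcttca
miR-1249 -1: aACGCCCTtcccccccttctt
Within each of the 4 runs of library codes the direction was the same for all of these called starts, and miR-199a-3p +1 differed by -0.41 to -0.60 log2 units within runs. With the run or the age as a covariate none was called: the edgeR adjusted p of miR-199a-3p +1 was then 0.0573 and 0.0548, that of miR-365-5p +1 0.0633 and 0.0780, and that of miR-1249 -1 0.0724 and 0.101. Leaving out single libraries kept miR-199a-3p +1 called in 13 of 18 fits, miR-365-5p +1 in 3 and miR-1249 -1 in 2, and without high 9, low 4, low 5, low 6 or low 9 no start group at all was called. Without the 4 libraries AC485 to AC488 the adjusted p was 0.187 for miR-199a-3p +1.

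The 445 single forms with enough reads, which stand in 494 entries of the table, were tested among 7330 entries in the same way. No entry of any kind passed an adjusted p of 0.05 by edgeR (percent called 0), while 643, or 8.77%, had an unadjusted p under 0.05. Among the entries with a shifted start 63 of 494 had one, which is 48 distinct sequences. DESeq2's Wald test, run as an alternative, called 158 entries, 13 of them with a shifted start. It used another low-count filter, so the 7330 and 494 entries above are not its totals. No share is given for these counts, and they are not a result about shifted starts. Five-prime shifted sequences of miR-199-3p were the first 7 shifted entries by p, and all 9 high libraries lay below the low median for each of them. They are overlapping forms of 1 miRNA, with a lowest edgeR adjusted p of 0.0537, and a start at A is shifted only under miR-199b-3p. One was the +1 form of miR-199b-3p that stops 2 bases before the annotated end, at 14.3, 20.6 and 24.7 CPM among high and 22.9, 29.9 and 49.0 CPM among low libraries (lowest, median and highest; log2 difference -0.67 ± 0.16 SE, edgeR adjusted p = 0.119), with overlapping ranges.
miR-199b-3p +1, short: aCAGTAGTctgcacattgg

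Castrated males and females did not differ in any miRNA's choice of start at an adjusted p of 0.05 by limma (0 of 115, percent called 0, with 12 of 115, or 10.4%, at an unadjusted p under 0.05). Of the 115 log2 differences of castrates minus females 83 were below 0, with a median of -0.13. miR-331-3p had 0.554% ± 1.11 in castrates and 1.49% ± 0.727 in females (SD, n = 9 each), with a median of 0 in castrates, which puts its log2 difference of -2.92 ± 0.95 (SE, limma adjusted p = 0.439) at the edge of what the table lists. miR-130a and miR-210, next by p, also had medians of 0 in castrates. miR-10a-5p, with deep counts, was 11.5%, 14.8% and 16.7% (lowest, median and highest) in castrates and 14.4%, 16.5% and 19.0% in females (log2 difference -0.20 ± 0.08 SE, limma adjusted p = 0.439), and miR-144, a red blood cell miRNA, was 2.30% ± 0.543 and 3.09% ± 0.938 (SD, n = 9 each; -0.44 ± 0.18 SE, limma adjusted p = 0.439). Among start groups none was called for sex by edgeR, with 22 of 413, or 5.33%, at an unadjusted p under 0.05 and 6 of the 200 shifted groups. The difference between the sexes in the class effect was called for no miRNA by limma (0 of 115, percent called 0, with 3 of 115, or 2.61%, at an unadjusted p under 0.05). Its lowest p was that of miR-145-5p, where the class effect on the log2 ratio was larger in castrates by 0.54 ± 0.18 (SE, limma adjusted p = 0.876), followed by miR-199b-3p at -0.29 ± 0.13.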

How the data were processed

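The authors deposited raw counts as whole numbers, 1 row for each read sequence under a mature miRNA and hairpin, and normalised values that were not used here. Total RNA from backfat went through a TruSeq Small RNA kit and single-end sequencing, per the labels' protocols. Bowtie 0.12.7, HTSeq, DESeq2 1.4.5 and the build Sscrofa10.2 are named in the submitters' processing notes, with no role given. How reads were trimmed, filtered and matched is not given in the sources used here. No genome of that build was used, so sequences come from the deposited table without genome coordinates. Another 2 value columns of the table carry names that fit none of the samples and were left aside.

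Each sequence was counted once per mature miRNA. Shares are percent of that miRNA's exact and length reads. limma 3.58.1 tested log2 of shifted over unshifted reads (0.5 added to each) for miRNAs with means of at least 10 reads of both kinds. edgeR 4.0.16 quasi-likelihood tests used TMM scaling and filterByExpr (minimum count 10), on all entries and on counts summed by start. Both ran in R 4.3.3 with sex or class as covariate, over all 18 libraries, with p-values adjusted by Benjamini-Hochberg and called under 0.05. DESeq2 1.42.0, other scalings, filters, an age or run term, and leaving out libraries were alternatives. The fits were also run on simulated data, with set changes larger than most of the differences reported here. That check does not cover smaller differences. Python 3.11.15 with pandas 2.3.3 and NumPy 2.4.6 made the summaries.

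The miRNAs named are the 15 with most shifted reads, the 15 with the highest share among those with a mean of at least 1000 reads, those called or with the 5 lowest p in each test, those with a main start off the annotation, those in the marker lists with shifted reads, and those whose shifted seed equals another miRNA's. The forms, lists and tests were chosen with earlier results of these data known.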

Additional observations from a re-analysis of the deposited data

Results flagged for a closer look

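In 48 sets of 9 libraries (the shifted share of each of 23 miRNAs and of all shifted forms together, in each class), 3 had a library whose distance to its nearest neighbour was a larger part of the whole range than Dixon's 95% critical value, and chance gives about 1 in 20. In the high class, library 6 had 12.2% of its miR-10b reads shifted, with the next highest at 10.5% (Wilson 95% interval 12.2% to 12.3%, covering counting error only), and it also had the highest share of all shifted reads, 6.70%. Library 9 of the high class had 10.19% of its miR-192 reads shifted (9.22% to 11.3%, 3404 reads), with the next lowest at 15.9%. The same library had 34.2% of its miR-664-5p reads shifted (30.4% to 38.3%, 552 reads), with the next highest at 24.6%, and it is the 1 high library of the run AC485 to AC488.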

How the results depend on the processing

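Library totals: the mean shifted share of 5.59% became 5.10% with each distinct sequence counted once, 4.05% without miR-10b and miR-143-3p, and 5.53% to 5.64% without single libraries. No share fit called a miRNA under any alternative run, which were another pseudocount, other filters, no shared sequences, an age or run term and leaving out libraries, and for backfat class also no sex term and mismatch forms. For start groups between backfat classes, the 7 calls became 0 with age, 0 with the run and 0 without AC485 to AC488 (an alternative added after seeing the data), 27 by DESeq2's Wald test (9 of them shifted), and 0 to 10 without single libraries. For start groups between sexes, the 0 calls became 1 by DESeq2 and 1 without AC485 to AC488. For single entries, the 0 calls became 2 with DESeq2 size factors, 59 at a minimum mean of 10 CPM (10 of them shifted), 158 by DESeq2's Wald test, and 0 to 29 without single libraries. The cause of these moves was not tested. DESeq2's Wald test and the minimum mean of 10 CPM tested other sets of features than the main fits. Their counts of shifted ones are given without shares and are not a result about shifted starts. Of 478 alternative values of 19 single results, 422 kept their direction and side of the threshold, 56 kept the direction but missed it, and 0 reversed. Only the 4 called starts, 2 of them the same reads, could miss the threshold, so all 56 are theirs. The other single results were not called in the main fit and stayed uncalled, so the 422 do not show that the calls were stable. Depth limits the rarer starts: counts below 2 are not listed, and many libraries stand at 0 for the smallest shares. No animals were paired in the labels used here, so no paired analysis was run. The labels give no replicate numbers, so library numbers such as high 9 follow the order of the samples within each class.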
